A study of Mus musculus with 12 samples.

Results

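Small RNA genes were examined in H2A.Z chromatin immunoprecipitation and sequencing data from mouse nucleus accumbens. A gene was included when its name began with Snord, Snora, Scarna or Mir followed by a digit and when a peak assigned to it had its middle within 1000 bp of its annotated start in at least 1 of 4 peak lists. This gave 77 genes out of 14993 genes with such a promoter peak in any list. They comprised 62 microRNA genes, 5 C/D box small nucleolar RNA (snoRNA) genes, 3 H/ACA snoRNA genes, 2 small Cajal body RNA genes and 5 longer host transcripts that carry a microRNA name ending in hg. The rule used the presence of a peak, so every gene had to be present somewhere, and the measurements of interest are in which lists each was found, where the peak lay and which other gene shared the site.

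The series holds 12 samples in 4 conditions of 3 samples. CC received cocaine and then cocaine and is labelled challenge. CS received cocaine and then saline and is labelled withdrawal, SC received saline and then cocaine and is labelled acute, and SS received saline at both times. The labels give the tissue as brain, nucleus accumbens, and give no dose, interval, strain, genotype, sex or age. The authors deposited 1 annotated peak list per condition with no value per sample, so there is no spread between samples and no test between conditions.

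The histone variant H2A.Z replaces H2A in nucleosomes that flank transcription start sites and in those of enhancers, where remodelling complexes deposit it. A microRNA is cut from a hairpin in a longer transcript, and it represses messenger RNAs that pair with its seed, the stretch near its 5′ end. Most vertebrate snoRNAs are cut from introns of host genes and have no promoter of their own: C/D box snoRNAs guide ribose methylation of ribosomal RNA, H/ACA snoRNAs guide the conversion of uridine to pseudouridine, and small Cajal body RNAs do the same for spliceosomal RNAs. Peaks are thus assigned by distance to the start of a small RNA, while the promoter nearby may belong to the host.

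The lists differed in length, in peak shape and in the q-values they admit, and this touches every comparison. CC had 4827 peaks covering 0.614 Mb with a median width of 107 bp, and CS had 6417 peaks covering 0.837 Mb with a median width of 110 bp. SC had 23170 peaks covering 18.0 Mb with a median width of 727 bp, and SS had 24655 peaks covering 19.7 Mb with a median width of 734 bp. Of 10 marker genes of medium spiny neurons, the main neurons of this tissue, 1 had a promoter peak in CC, none in CS, 8 in SC and all 10 in SS. Of 5 markers each, astrocytes had 0, 0, 1 and 2 genes with a promoter peak in CC, CS, SC and SS, oligodendrocytes 1, 0, 2 and 2, endothelium 0, 2, 3 and 4, and microglia 0 in every list. The share of list length, q-value range, read depth or treatment in any difference between lists cannot be told apart, since each condition has 1 list.

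Mature sequences were available for 53 of the 62 microRNA genes, taken from RefSeq on GRCm38.p6, the build that mm10 names. A sequence was taken only where the start and end of the hairpin equalled the gene span in the authors' lists, so this match is how the 53 were chosen. The sequences below are those of the microRNAs on which the results turn, written 5′ to 3′ with the seed (bases 2 to 8) in capitals. The first 4 belong to genes known for roles in neurons or glia, the next 4 to genes with peaks in CC or CS as well as SS, and the last 4 to genes named in CS or CC and not in SS.
miR-9-5p: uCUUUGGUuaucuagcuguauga
miR-128-3p: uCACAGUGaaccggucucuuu
miR-132-3p: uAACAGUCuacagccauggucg
miR-219a-5p: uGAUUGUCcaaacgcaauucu
miR-210-3p: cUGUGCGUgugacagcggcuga
miR-34b-5p: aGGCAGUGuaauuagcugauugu
miR-203-3p: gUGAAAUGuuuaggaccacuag
miR-193a-3p: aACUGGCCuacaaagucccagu
miR-148a-3p: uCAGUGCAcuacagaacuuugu
miR-423-5p: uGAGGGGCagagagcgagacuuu
miR-8092: gCCAUCUGggacucgcaggca
miR-8105: aGGCGACUggcgagacccgaag

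The 53 genes gave 82 mature sequences with 81 distinct seeds. Shared seeds therefore do not group these genes: the only seed found more than once, GUCAGGC, was that of miR-344b-5p and miR-344d-3-5p, whose genes lie 64191 bp apart on chromosome 7. They are shown for their shared seed.
miR-344b-5p: aGUCAGGCuccuggcuaaaguuc
miR-344d-3-5p: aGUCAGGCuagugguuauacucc

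By name, small RNA genes made up a similar small share of the promoter genes of each list. There were 17 in CC, 18 in CS, 64 in SC and 52 in SS. These are 0.501% of 3394 promoter genes in CC, 0.417% of 4320 in CS, 0.494% of 12948 in SC and 0.383% of 13585 in SS. MicroRNA genes accounted for 15 in CC, 15 in CS, 51 in SC and 43 in SS. C/D box snoRNA genes numbered 1 in CC, 3 in CS, 3 in SC and 2 in SS, and H/ACA snoRNA genes 0 in CC, 0 in CS, 3 in SC and 1 in SS. All 5 host transcripts were found in SC and in SS, and none in CC or CS. Presence did not mean the same in each list. With a −log10 q of at least 5 required, 5 genes remained in CC, 5 in CS, 63 in SC and 52 in SS.

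**Figure D1:**
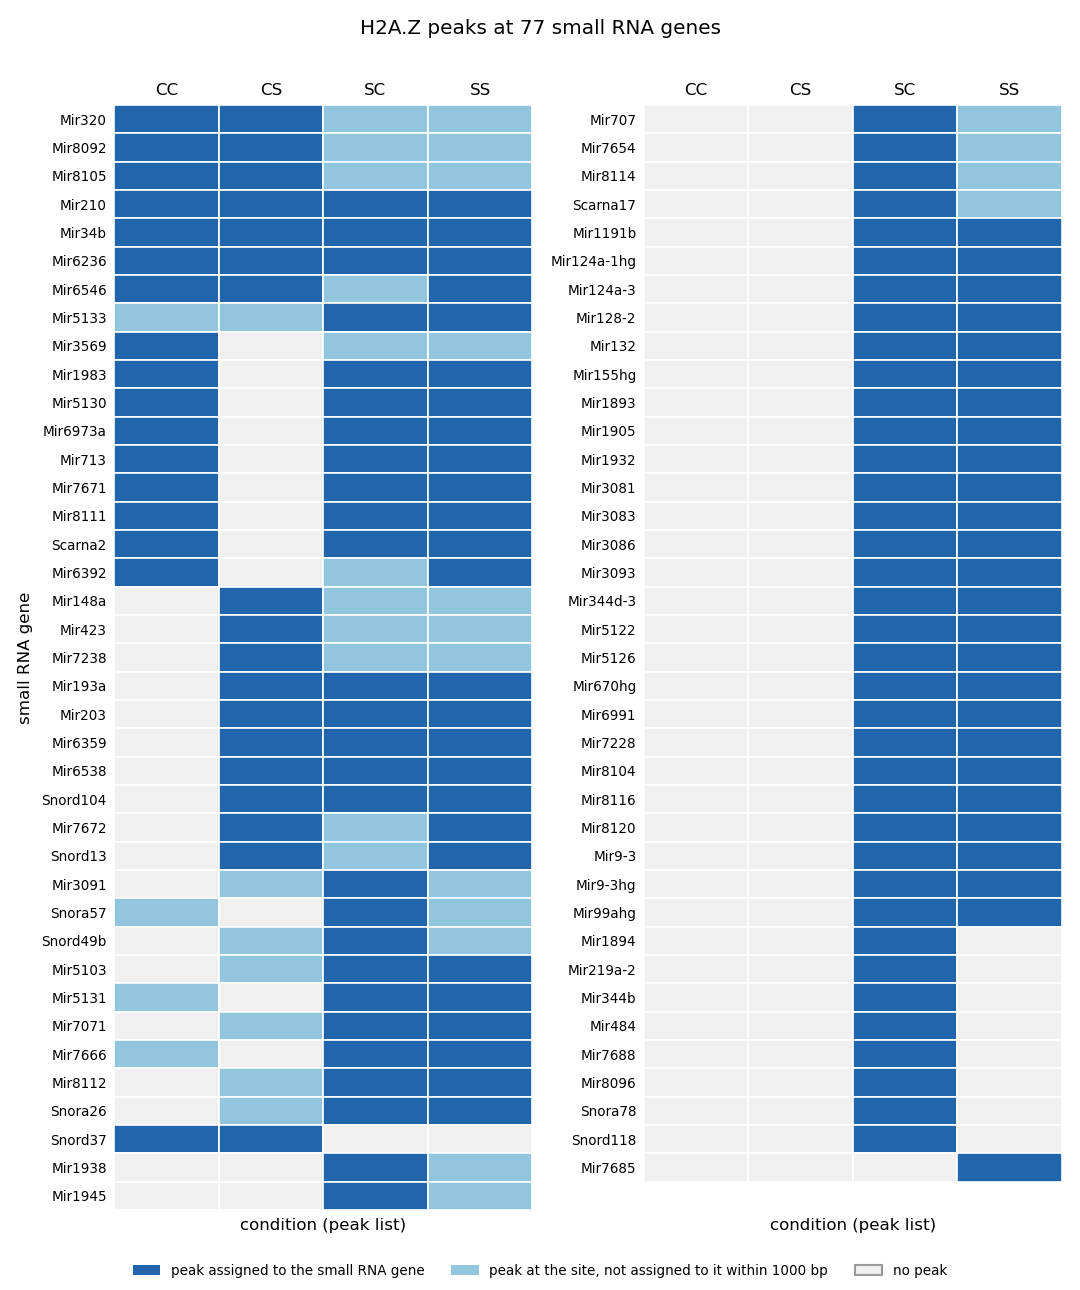
Presence of an H2A.Z peak at each of the 77 small RNA genes (rows, in 2 panels) in the CC, CS, SC and SS lists (columns). Dark blue is a peak assigned to the gene within 1000 bp of its start, light blue a peak at the same site that is not, and grey no peak. A peak at the site overlaps a peak assigned to the gene in another list, or has its middle within 1000 bp of the start. The SC and SS columns are filled at 75 and 68 genes, against 21 in CC and 25 in CS.

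The SS small RNA genes were found again in the other lists about as often as promoter genes in general. In CC, 12 of the 52 SS genes were found (23.1%, 95% exact binomial interval 12.5 to 36.8%), against 22.7% of all SS promoter genes. In CS, 11 of 52 were found (21.2%, 11.1 to 34.7%), against 28.8% of all. In SC, 47 of 52 were found (90.4%, 79.0 to 96.8%), against 88.2% of all. Each background share lies inside the interval of the small RNA genes, so none of these shares sets them apart. The intervals cover the counting of genes only.

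The same held when SS peaks were matched by position, with an overlap of at least 1 bp and whatever name the overlapping peak carried. Of the 58 SS peaks at small RNA genes, 14 were overlapped in CC (24.1%, against 21.3% of all SS promoter peaks) and 14 in CS (24.1%, against 27.1%). In SC, 56 of 58 were overlapped (96.6%, 88.1 to 99.6%), against 89.0% of all.

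**Figure D2:**
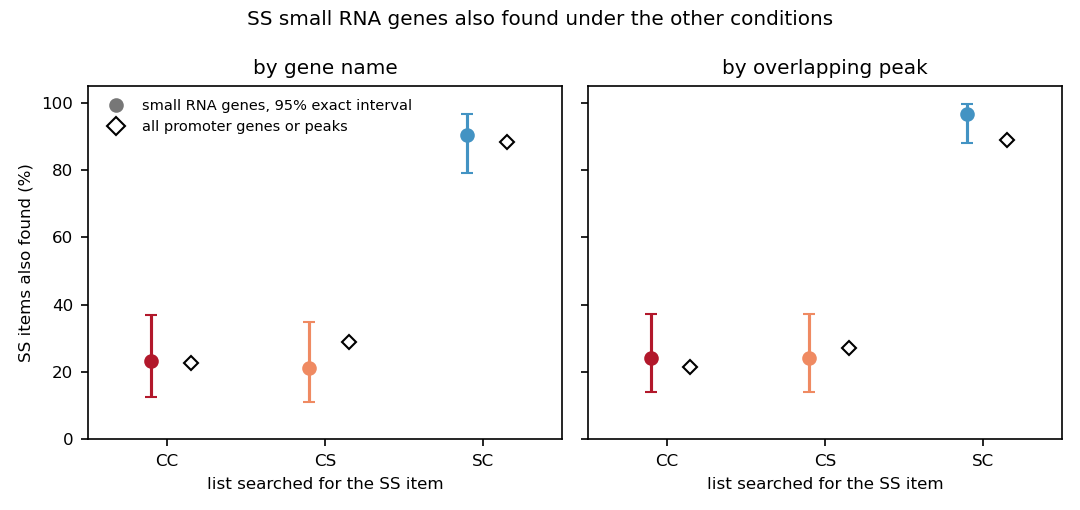
Share of SS small RNA genes (left, by name) and of SS peaks at these genes (right, by overlap of at least 1 bp) that were also found in CC, CS or SC, in percent. Circles with bars are the small RNA genes with 95% exact binomial intervals, and open diamonds are all SS promoter genes or peaks. The CC and CS circles lie between 21.2 and 24.1%, and the SC circles at 90.4 and 96.6%.

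Small RNA genes named in a list and not in SS were more frequent than among promoter genes in general, until the peaks themselves were compared. In CC, 5 of 17 genes were absent by name from SS (29.4%, 10.3 to 56.0%), against 9.13% of all CC promoter genes. In CS, 7 of 18 were (38.9%, 17.3 to 64.3%), against 9.40%. In SC, 17 of 64 were (26.6%, 16.3 to 39.1%), against 7.42%. By position, 1 of the 17 CC peaks had no overlapping SS peak (5.88%, 0.149 to 28.7%, against 2.96% of all CC promoter peaks), and likewise 1 of the 18 CS peaks (5.56%, 0.141 to 27.3%, against 2.90%). In SC, 12 of 69 peaks had none (17.4%, 9.32 to 28.4%), against 6.52% of all SC promoter peaks. For CC and CS most of the absence by name was thus a difference in which of neighbouring genes the authors' annotation assigned the peak to, or at Mir148a in the distance limit, while in SC part of it remained by position.

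The sites behind those names show this gene by gene. Mir320 (chr14:70443510-70443591, plus strand), a microRNA whose capped precursor starts at its own transcription start, lies beside the start of Polr3d, which encodes a subunit of RNA polymerase III. The peak of 117 bp in CC (fold enrichment 5.08) and of 106 bp in CS (5.02) carried the name Mir320, while peaks of 1242 bp in SC (6.03) and 1347 bp in SS (5.29) covered the hairpin and carried the name Polr3d. Fold enrichment is the authors' ratio over background, and it describes a peak within its own list only.

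Mir8105 (chr10:128458680-128458768, plus strand) lies just upstream of Smarcc2, a subunit of the BAF chromatin remodelling complex. Its peaks had fold enrichments of 4.78 in CC and 4.23 in CS, and the Smarcc2 peaks at the same site had 8.10 in SC and 7.80 in SS. Mir3569 (chr7:30589380-30589437, plus strand) lies beside the start of Kmt2b, a histone H3 lysine methyltransferase. Its 109 bp peak in CC had a fold enrichment of 5.08, no peak lay there in CS, and the Kmt2b peaks had 11.8 in SC and 10.3 in SS. The narrow CC and CS peaks thus fell inside sites where SC and SS had peaks over 1 kb wide.

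Other sites of this kind lie inside the host gene itself. Mir423 (chr11:77078064-77078172, minus strand) lies in Nsrp1, a regulator of splicing, with the Nsrp1 start 314 bp from the middle of its CS peak. That CS peak had a fold enrichment of 4.72, and the Nsrp1 peaks over it had 6.70 in SC and 5.18 in SS. A separate CS peak of 4.58 was assigned to Nsrp1. Mir7238 (chr8:11635694-11635736, minus strand) lies in Ankrd10, a gene encoding an ankyrin repeat protein, and had a CS peak of 5.22 where the Ankrd10 peaks had 8.04 in SC and 6.56 in SS.

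Mir8092 (chr19:40894703-40894789, plus strand) lies across the start of the zinc finger gene Zfp518a. Its peaks had fold enrichments of 4.82 in CC and 6.48 in CS, and the Zfp518a peaks over the site had 8.47 in SC and 6.65 in SS. In CC, Zfp518a had in addition a peak of its own at 4.55, 524 bp from its start. The Zfp518a promoter window shows how close the genes are: the hairpin of Mir8092 begins inside it. The window runs from 250 bases before to 50 bases after the start (chr19:40894455-40894754, plus strand, GRCm38.p6, RefSeq), with the letters CCGGAAG, the core of ETS family sites, in capitals where they occur on either strand.
Zfp518a window: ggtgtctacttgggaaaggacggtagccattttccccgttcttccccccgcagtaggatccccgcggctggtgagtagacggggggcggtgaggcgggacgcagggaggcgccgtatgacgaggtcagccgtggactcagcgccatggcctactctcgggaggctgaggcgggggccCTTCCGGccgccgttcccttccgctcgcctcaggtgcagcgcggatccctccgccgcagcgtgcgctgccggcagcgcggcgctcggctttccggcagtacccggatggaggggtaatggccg

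Mir148a (chr6:51269812-51269910, minus strand), known for repressing the DNA methyltransferase Dnmt1, was absent by name from SC and SS through the distance limit. Its peak middle lay 926 bp upstream of the start in CS (fold enrichment 5.22), 1053 bp in SC (14.8) and 1008 bp in SS (8.33), so the CS peak was just inside the limit of 1000 bp and the SC and SS peaks just outside. The overlapping peaks of SC and SS were 1011 and 1125 bp wide. Others close to the limit were Mir7688 in SC, inside at 974 bp, and Mir7b in SS and Mir22hg in SC, outside at 1003 and 1082 bp.

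Snord37 was the exception, with a peak in CC and CS and none at its site in SC or SS. It is a C/D box snoRNA gene (chr10:81178950-81179013, plus strand) inside Eef2 (chr10:81176631-81182509), which encodes the elongation factor that moves the ribosome along messenger RNA. The CC peak lay at chr10:81178138-81178231 with a fold enrichment of 8.57, and the CS peak at chr10:81178135-81178240 with 9.71. They overlap each other almost wholly, centred 766 and 763 bp upstream of Snord37 and 1553 and 1556 bp inside Eef2 from its start, so they lie neither at the snoRNA nor at the host start. Whether that stretch is exon or intron of Eef2 was not analysed here.

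The Snord37 peaks ranked high within their lists, 149th of 4827 in CC and 121st of 6417 in CS. The nearest peaks of the other lists lay upstream of Eef2 and were weak: an SC peak of 2.79 with its middle 1922 bp before the Eef2 start, and an SS peak of 2.68 with its middle 1867 bp before it. The Eef2 start itself had no peak within 1000 bp in any of the 4 lists. The count of reads at the site is not in the lists, so the level of H2A.Z there in SC and SS is not known.

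**Figure D3:**
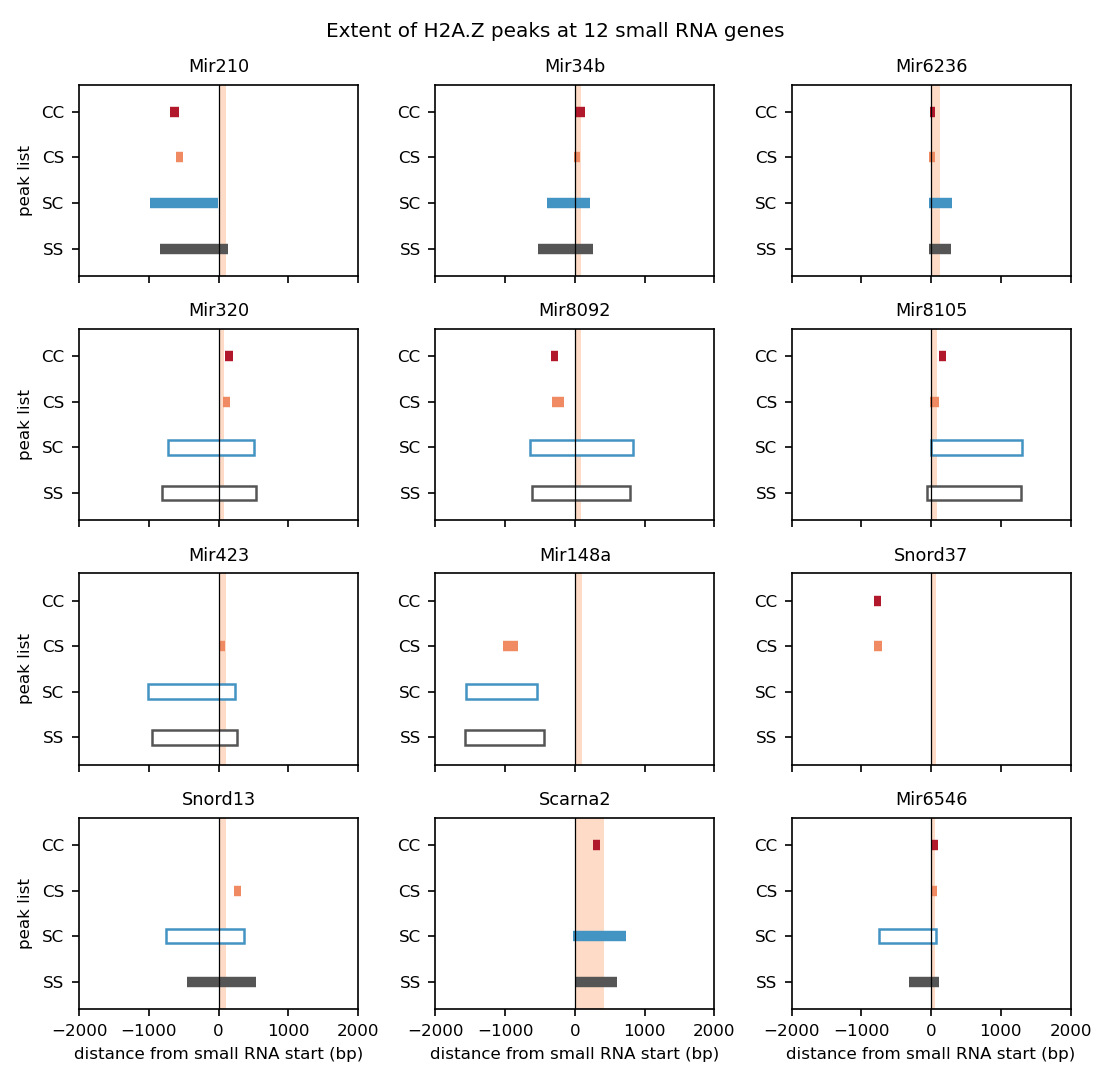
Extent of the peaks at 12 small RNA genes in the CC, CS, SC and SS lists, along the distance in bp from the start of the small RNA in its direction of transcription (pale band, the small RNA gene; vertical line, its start). Filled bars are peaks assigned to the small RNA within 1000 bp and open bars peaks at the site that are not. CC and CS bars are 69 to 216 bp wide and mostly fall inside SC and SS bars, except at Snord37.

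Only 3 small RNA genes were found by name in all 4 lists, 3.9% of 77 (0.811 to 11.0%), against 10.6% of all promoter genes. They were Mir210, Mir34b and Mir6236. Of these, only Mir6236 had a −log10 q of at least 5 in all 4 lists. In CC and CS that value was 2.31 and 2.38 for Mir210, and 2.28 and 2.38 for Mir34b. Mir210 (chr7:141221384-141221493, minus strand), known for its induction by hypoxia, had fold enrichments of 4.33 in CC, 4.35 in CS, 4.64 in SC and 5.02 in SS. Its peaks were centred 634, 567, 496 and 352 bp upstream of the hairpin in CC, CS, SC and SS, and no start of a longer gene lay within 1000 bp.

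Mir34b (chr9:51103562-51103645, minus strand), known as a target of p53 that slows the cell cycle, lies within the span of Hoatz and, on the other strand, of Btg4. It had 4.31 in CC, 4.35 in CS, 13.3 in SC and 7.10 in SS. Its CC and CS peaks were 133 and 79 bp wide and lay over the hairpin, and its SC and SS peaks were 620 and 791 bp wide. No peak reached its cluster partner Mir34c, although a peak middle lay within 1000 bp of that gene's start in all 4 lists.

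Mir6236 (chr9:110281287-110281409, plus strand) stood apart in shape. Its peaks had fold enrichments of 8.70 in CC, 8.70 in CS, 3.87 in SC and 3.76 in SS, and all 4 began within 15 bp of each other. It ranked 138th of 4827 peaks in CC and 147th of 6417 in CS, the highest small RNA gene in CC and the next after Snord37 in CS. The SC and SS peaks, 334 and 322 bp wide, were close to the shortest peaks of their lists, 315 bp in SC and 321 bp in SS. When peaks at the site were counted whatever their name, 8 genes had a peak in all 4 lists, with Mir320, Mir5133, Mir6546, Mir8092 and Mir8105 in addition.

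Other genes named in CC were shared mostly with SC and SS. Besides those already described, 7 were named in CC, SC and SS (Mir1983, Mir5130, Mir6973a, Mir713, Mir7671, Mir8111 and Scarna2), and Mir6392 in CC and SS. Scarna2 (chr3:108554338-108554751, minus strand) is a guide for modification of spliceosomal RNA that has its own promoter in human cells. It had fold enrichments of 5.08 in CC, 6.16 in SC and 4.06 in SS, and the CC peak of 101 bp lay within its SC and SS peaks. Mir5130, in Kctd12, had 3.95 in CC, 9.31 in SC and 7.87 in SS, and its CC value was the lowest of the small RNA genes in that list. Mir6973a, in the cytokine gene Ltb, had 5.71 in CC, 4.18 in SC and 5.63 in SS, and Mir8111 had 5.80 in CC, 4.48 in SC and 4.91 in SS. Mir1983 had 4.51 in CC, 5.24 in SC and 4.78 in SS, Mir713 had 4.35, 4.07 and 5.13 in CC, SC and SS, and Mir7671 had 4.57, 5.87 and 4.50. Mir6392, near the start of its host Pnpla3, a lipid hydrolase, had 6.27 in CC and 5.64 in SS, and the SC peak there was named Pnpla3 (5.23). The CC peaks at these 8 genes were 67 to 245 bp wide. Of the 18 CS genes, 8 were also named in CC (44.4%, 21.5 to 69.2%), against 41.2% of all CS promoter genes. Of the 64 SC genes, 10 were named in CC (15.6%, 7.76 to 26.9%), against 23.3% of all.

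In CS, 5 genes were shared with SC and SS and not with CC: Mir193a, Mir203, Mir6359, Mir6538 and Snord104. Mir203 (chr12:112130880-112130955, plus strand), known for restraining the growth of skin keratinocytes, had fold enrichments of 5.02 in CS, 14.7 in SC and 13.5 in SS. It was the first of the small RNA genes in SS and ranked 65th of 24655 SS peaks. Mir193a had 4.66 in CS, 11.1 in SC and 9.53 in SS, with its peak centred 426, 532 and 493 bp upstream, and no start of a longer gene lay within 1000 bp of a peak middle at either. Mir6359, near the start of its host Rttn, had 4.78 in CS, 6.69 in SC and 5.29 in SS.

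Snord104, a C/D box snoRNA, had 5.52 in CS, 4.88 in SC and 3.48 in SS, near the start of the transcript Gm36220 that contains it. Snord13 (chr8:31149864-31149967, minus strand), a C/D box snoRNA with its own promoter that acts on ribosomal RNA, had 3.84 in CS and 4.30 in SS. In SC the site had a peak of 6.14 under the name of its neighbour Tti2. Mir7672, in Pde12, was likewise named in CS and SS and lay under a Pde12 peak in SC (6.73). Mir6546, in Fcgr3, was named in CC (6.16), CS (6.36) and SS (4.35), with an Fcgr3 peak in SC (5.26).

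The 5 host transcripts and several microRNA genes known from neurons were found in SC and SS and in neither CC nor CS. This was the pattern of 32 of the 77 genes (41.6%, 30.4 to 53.4%), against 46.2% of all promoter genes, so it is not particular to them. Mir9-3, one of the loci of miR-9, which promotes the differentiation of neural progenitors, had fold enrichments of 6.65 in SC and 6.26 in SS over its hairpin (chr7:79505264-79505353, plus strand). Its host transcript Mir9-3hg had a peak at each of 2 annotated starts: 9.01 in SC and 6.95 in SS at the start upstream of the hairpin, and 9.77 in SC and 9.43 in SS at a start downstream of the hairpin. H2A.Z peaks thus marked 3 places in this locus in both lists. The window at the upstream start (chr7:79499776-79500075, plus strand, GRCm38.p6, RefSeq) holds TGACGTCA, the binding sequence of CREB, shown in capitals.
Mir9-3hg window: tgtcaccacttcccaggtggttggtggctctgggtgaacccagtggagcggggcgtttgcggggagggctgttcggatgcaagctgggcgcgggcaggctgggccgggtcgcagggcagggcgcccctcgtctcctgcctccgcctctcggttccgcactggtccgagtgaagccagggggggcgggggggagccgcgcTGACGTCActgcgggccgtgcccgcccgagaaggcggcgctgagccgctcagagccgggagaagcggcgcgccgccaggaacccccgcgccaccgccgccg

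Other neuronal microRNA genes had lower fold enrichments. Mir124a-3, a locus of the neuron-specific miR-124, had 4.74 in SC and 4.41 in SS, with peaks 1534 and 1421 bp wide centred 368 and 451 bp upstream. The host Mir124a-1hg had 3.07 in SC and 2.87 in SS. Mir132, induced by CREB and known for shaping dendrites, had 4.60 in SC and 3.96 in SS, and its peak also lay at the clustered gene Mir212. Mir128-2, in Arpp21, whose microRNA dampens the excitability of neurons, had 3.53 in SC and 3.77 in SS over a hairpin with no start site nearby. Mir9-1, another miR-9 locus, had a peak middle within 1000 bp of its start in SC and SS, at a peak near Mir3093. No peak middle lay that close to Mir124a-1, Mir124a-2, Mir9-2, Mir128-1 or Mir34a in any list.

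Among host transcripts, Mir155hg, which carries the immune microRNA miR-155, had 16.1 in SC, the first of the small RNA genes there, and 10.9 in SS. The long noncoding transcript Mir99ahg had 4 peaks in SC and 6 in SS at its several annotated starts, with fold enrichments of up to 3.61 in SC and 3.85 in SS. Mir670hg had up to 5.33 in SC and 5.34 in SS.

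The remaining genes with the highest fold enrichment in SS mostly sat at promoters of other genes. Mir7071, in Heatr3, had 12.6 in SC and 12.4 in SS. Mir7666 lies within the span of Micu3 and near 1 annotated start of the growth factor gene Fgf20. It had 13.3 in SC and 11.7 in SS, with the CC peak there (4.12) named Fgf20. Fgf20 had separate peaks at another annotated start, of 4.36 in SC (chr8:40286324-40286851) and 4.95 in SS (chr8:40285908-40287126). Mir6538, with a peak middle 60 bp from the start of its host Rnf144a, had 4.83 in CS, 13.4 in SC and 11.5 in SS. Mir5126, near the start of Dner, which encodes a neuronal Notch ligand and lies on the other strand, had 13.4 in SC and 10.7 in SS. Mir8104, in Ppm1h, had 11.6 in SC and 9.51 in SS, and Mir1893, in Epc1, had 8.53 in SC and 9.34 in SS.

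**Figure D4:**
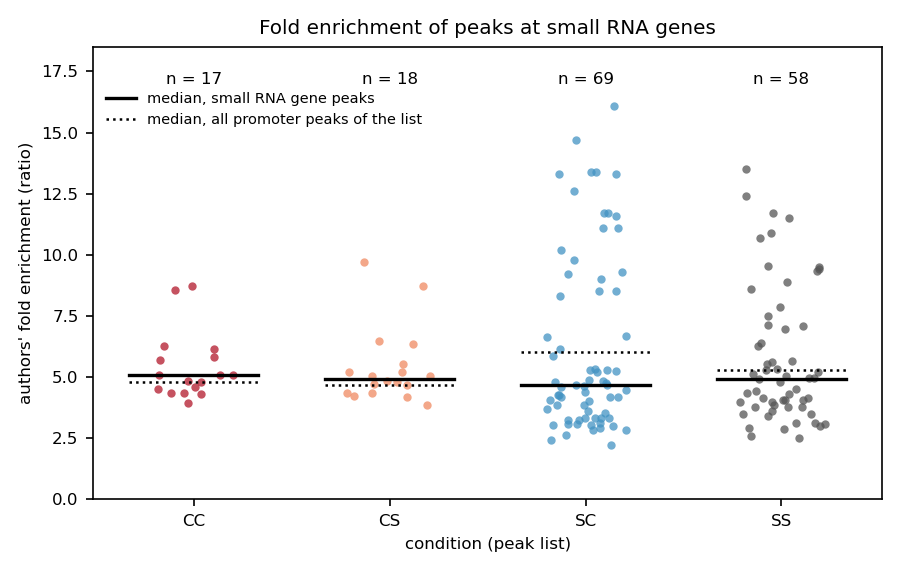
Authors' fold enrichment (ratio, linear axis) of each peak assigned to a small RNA gene within 1000 bp of its start, in the CC, CS, SC and SS lists. Points are peaks, solid lines their medians (5.08, 4.92, 4.65 and 4.93) and dotted lines the medians of all promoter peaks of the list (4.78, 4.68, 6.03 and 5.30). The points reach 8.70 in CC, 9.71 in CS, 16.1 in SC and 13.5 in SS.

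Set against all promoter peaks of their own list, peaks at small RNA genes had a median fold enrichment above the list's in CC (5.08 against 4.78) and CS (4.92 against 4.68), and below it in SC (4.65 against 6.03) and SS (4.93 against 5.30). The values ranged over 3.95 to 8.70 in CC, 3.84 to 9.71 in CS, 2.23 to 16.1 in SC and 2.48 to 13.5 in SS. In CC and CS many peaks shared identical values: 25.4% of fold values were distinct in CC and 20.9% in CS, against 68.6% in SC and 54.1% in SS, so small differences within CC or CS cannot be ranked finely.

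Peaks were narrow in CC and CS also at small RNA genes. Their median width was 101 bp in CC, 95 bp in CS, 670 bp in SC and 814 bp in SS. Leaving out the host transcripts, the peak touched the small RNA gene itself at 5 of 17 peaks in CC, 8 of 18 in CS, 42 of 59 in SC and 41 of 47 in SS. Peak middles lay within 100 bp of the small RNA start for 23.5% of peaks in CC (all promoter peaks 20.9%), 38.9% in CS (20.1%), 33.3% in SC (46.3%) and 39.7% in SS (46.8%).

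Of the 17 genes named in SC and not in SS, 9 had an SS peak at the site not assigned to them within 1000 bp and 8 had none. At Mir1945, Snora57 and Snord49b, among the 9, the SS peak lay close by but did not overlap the SC peak. The highest were Mir1938 (11.7), near the start of Ifrd1, where the SS peak of 8.34 was named Gm7008, and Mir7654 (10.2), at the start of Arglu1, where the SS peak of 9.19 was named Arglu1. Scarna17 (5.27) also had an overlapping SS peak of another name, while the SS peak near Snord49b (4.65) was a separate one. Mir219a-2 (chr2:29845631-29845727, minus strand), a locus of miR-219, which drives oligodendrocyte differentiation, had an SC peak of 4.79 centred 496 bp upstream and no SS peak at the site.

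The others with no SS peak at the site were Mir1894, Mir344b, Mir484, Mir7688, Mir8096, Snora78 and Snord118, with SC fold enrichments of 3.07 to 4.25. Snord118 (chr11:69073427-69073561, plus strand), a C/D box snoRNA with its own promoter that acts in processing of ribosomal RNA, had 3.30. Snora78, an H/ACA snoRNA in Snhg9, had 3.84. Mir484 lies beside Marf1 and is, like Mir320, known to be made from a capped precursor; it had 4.25. All of these SC values lay below the median of SC promoter peaks, 6.03.

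In the other direction, 5 genes were named in SS and not in SC. Mir6392, Mir6546, Mir7672 and Snord13 had an SC peak under the name of the neighbour (Pnpla3, Fcgr3, Pde12 and Tti2). Mir7685, with 3.77 in SS and in no other list, had none.

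The position of the small RNA in longer genes was taken from RefSeq spans for the 72 genes other than host transcripts. In all, 38 lay inside a longer gene of the same strand, 6 inside a gene of the opposite strand only, 5 inside a gene of unknown strand and 23 inside none. For 26 of the 38, the start of the host lay within 1000 bp of the middle of a peak assigned to the small RNA. Taking the start of any other gene, small RNA genes left out, 41 of 72 had one that close, at a median distance of 258 bp, and 31 had none among the start sites used here.

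SS genes with another start nearby had a median fold enrichment of 5.54 over 23 genes, against 4.46 over 24 genes with none. Those with another start nearby were named in CC at 4 of 23, in CS at 6 and in SC at 19. Those with none were named in CC at 8 of 24, in CS at 5 and in SC at 23. These counts are by name, and a start nearby can take the name of the peak. SS genes absent by name but with a peak of another name at the site numbered 3 in CC, 5 in CS and 4 in SC. All of them had another start nearby, so the counts by name do not compare the presence of a peak. Genes without another start included Mir203, Mir193a, Mir210, Mir34b and Mir132, where starts of small RNA genes such as Mir212 and Mir34c were not counted.

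The RefSeq promoter windows overlapped by these peaks resembled other windows with a peak in base composition. The 28 windows, some of which overlap and which join into 23 separate stretches, had a median GC content of 65.2% and 27 CpG dinucleotides. The medians were 62.7% and 23 over the 13408 windows overlapped by a promoter peak of any gene, and 52.7% and 7 over all 32851 windows. The CREB sequence TGACGTCA occurred in 2 of 28 windows (Mir9-3hg and Pnpla3), against 3.29% of windows with a peak and 1.79% of all windows. The ETS core CCGGAAG occurred in 5 of 28, against 17.6% and 8.86%, and the TATA box letters TATAAA in 3 of 28, against 5.8% and 13.6%. Of these 3 windows, 2 at Snora57 overlap and share the same TATAAA stretch, which was counted in both. Both strands were searched and the motifs were chosen after the peak values were seen. A match describes letters in the window and does not show binding.

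Because the rule depends on the name given to a peak, every RefSeq microRNA gene was also set against the peaks by position, whatever their name. Of 1228 microRNA genes, a peak middle lay within 1000 bp of the start for 29 in CC (2.36%), 34 in CS (2.77%), 127 in SC (10.3%) and 121 in SS (9.85%). The shares over 27025 genes of the RefSeq promoter table were 11.7% in CC, 15.1% in CS, 43.6% in SC and 45.4% in SS. Of the 121 microRNA genes with an SS peak, 23.1% also had one in CC, 26.4% in CS and 95.9% in SC, against 25.6%, 32.9% and 92.6% of the promoter table genes. A peak middle thus lay near the start of a microRNA gene less often than near that of a promoter table gene in each list. These starts are not alike, since the microRNA start is that of the hairpin, which lies in a longer transcript. Once present in SS, microRNA genes were found again at shares not far from those of promoter table genes.

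Of 142 RefSeq genes named Snord, Snora or Scarna, 4 had such a peak in CC, 9 in CS, 24 in SC and 20 in SS (2.82%, 6.34%, 16.9% and 14.1%). Of 1208 further snoRNA genes with other names, 6 had one in CC, 9 in CS, 19 in SC and 23 in SS. Position thus added to the named snoRNAs several that lie beside another gene's peak, among them Snora52 in CS, Snora7a in CC, SC and SS, and Snora21 in CS, SC and SS.

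Genes that make or carry small RNAs were named more often in SC and SS than in CC and CS, as promoter genes were in general. Over all genes of the RefSeq promoter table the shares with a peak, counted by position, were the 11.7% in CC, 15.1% in CS, 43.6% in SC and 45.4% in SS given above. Of 21 genes of microRNA processing, 4 had a promoter peak by name in CC (19.0%), 6 in CS (28.6%), 17 in SC (81.0%) and 19 in SS (90.5%). Dicer1, the enzyme that cuts the hairpin to the mature microRNA, had 10.6 in SC and 9.74 in SS and was in neither CC nor CS, as was Ago2, which binds the mature microRNA (9.54 in SC and 8.98 in SS). Ago3, another Argonaute, had 4.78 in CC, 5.35 in CS, 6.79 in SC and 6.53 in SS. Drosha, which makes the first cut, had a promoter peak by name in SS (6.48) and in no other list. Whether a peak of another name lay at the starts of genes absent by name was not examined for these gene lists.

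Of 24 genes of the snoRNA and Cajal body particles, 7 had a promoter peak by name in CC (29.2%), 11 in CS (45.8%), 19 in SC (79.2%) and 19 in SS (79.2%). Each share lay above that over all genes (11.7%, 15.1%, 43.6% and 45.4%), which was counted by position and so differs in measure. Nop58, a core protein of C/D box particles, had 4.97 in CC, 5.67 in CS, 5.93 in SC and 4.80 in SS. Shq1, which helps assemble H/ACA particles, had 5.38 in CC, 4.60 in CS, 6.69 in SC and 5.61 in SS. Against the general pattern, Tgs1 was named in CC (6.16) and CS (4.35) and in neither SC nor SS, and Pih1d1 in CS only (4.35). Of 22 noncoding snoRNA hosts and related genes, 3 had one in CC (13.6%), 5 in CS (22.7%), 13 in SC (59.1%) and 13 in SS (59.1%). Gas5, a host of several C/D box snoRNAs, had 14.4 in SC and 12.9 in SS and was in neither CC nor CS, while Snhg4 and Snhg20 were in all 4 lists.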

How the data were processed

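The files were 4 annotated H2A.Z peak lists, 1 per condition, each named for its 3 samples. The submitters' processing notes name cutadapt, HISAT, SAMtools, MACS2 and the mm10 build; versions, settings, control library and pooling were not given in the sources used here. For every peak the authors deposited a fold enrichment (a linear ratio) and a linear q-value. They also deposited an assigned gene and a signed distance, which equalled peak middle minus gene start within 0.5 bp for 48166 peaks. Coordinates are printed as deposited.

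Genes were counted by name, by overlap of at least 1 bp, and by RefSeq position. Shares carry 95% exact Clopper-Pearson intervals, which cover counting only; genes are not replicates. No per-sample value, depth or test was available. Overlap code was tested on simulated peaks. Python 3.11.15, pandas 2.3.3 and SciPy 1.17.1 were used. Genes named are those in CC, CS or all lists, the 10 highest in SS, the 5 highest in SC and not SS, those in SS and not SC, and Snord37; others named were chosen after their values were seen. The members and gene lists were chosen with earlier results of these data known. Total H3 libraries were not analysed here.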

Additional observations from a re-analysis of the deposited data

How the results depend on the processing

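No paired analysis was possible because each condition has 1 peak list with no column per sample; for the same reason no replicate could be left out. Limiting the distance to 500 bp or leaving out the host transcripts moved none of the 9 counts by over 1.5 times, and neither did an overlap of at least 50% of the shorter peak for the 3 counts of SS genes also in CC, CS or SC. Keeping peaks with −log10 q of at least 5 left 5 genes in CC and 5 in CS, 4 SS genes also in CC and 3 also in CS, 1 gene in all 4 lists and 2 in CS or CC and not in SS, against 17, 18, 12, 11, 3 and 8. With each list reduced to its 4827 peaks of highest fold enrichment, SC held 14 genes and SS 13, of which 1 was also in CC, 3 in CS and 10 in SC; 0 were in all 4 lists and 21 were in CS or CC and not in SS. By an overlapping peak of any name, 1 was in CS or CC and not in SS. Counting any peak at the site, an alternative chosen after seeing the data, gave 8 in all 4 lists and 1 in CS or CC and not in SS.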
